A study of Oryza sativa Japonica Group with 9 samples.

Results

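Gene expression in rice egg cells before pollination was compared with that in the same cell lineage over both stages collected after pollination. The comparison used all 9 of the 9 arrays of the series: 3 arrays of unfertilized egg cells (0 h), 3 of fertilized egg cells collected about 1 h after pollination and 3 of zygotes collected about 3 h after pollination. The arrays were assigned by their titles, and the 2 later stages carried equal weight, so that 3 egg arrays were set against 6 later ones. All plants were wild-type Oryza sativa ssp. japonica, cultivar Katy, raised in a greenhouse, and each sample held RNA from about 100 cells removed from ovules without enzymes and amplified in 2 cycles during labelling. The titles number the samples as biological replicates. A free-text field attached to the samples names seedlings and other material instead. The titles and the stage field, which name the same stages, were used. In pooled cells of this kind, fewer cells and less RNA per cell cannot be told apart.

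The egg cell is the female gamete that lies at the micropylar end of the embryo sac. After pollination a sperm cell fuses with it, the nuclei join, and the zygote passes from transcripts stored by the egg to transcripts made from its own genome. An array signal cannot separate the loss of stored messages from the shutting down of genes. Dehydrins, which appear below, are hydrophilic proteins that accumulate in maturing seeds and in tissues exposed to abscisic acid (ABA) or drying.

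Signals were MAS5 intensities in arbitrary units, scaled by the authors to one trimmed mean. The array carried 57194 probe sets after control and reporter probe sets were dropped, and the brighter 28597 of them, by their mean over all arrays, were tested. Controls differed between the groups. The signal of the poly-A RNA spikes, which are added before amplification, was 206 to 528 on the egg arrays and 3572 to 48058 on the later arrays. These signals are geometric means over the spike probe sets. Hybridization spikes are added after amplification. The log2 ratio of poly-A to hybridization spikes, from arithmetic means, was -3.42 to -2.61 on egg arrays and -0.84 to 0.17 on later arrays. From geometric means it was -4.21 to -3.42 and -2.03 to 0.26. Each ratio gave the same p (exact two-sided permutation test over 84 splits, p = 0.0238, the smallest this design allows, adjusted p = 0.0655 over 11 measures). The 18S ribosomal RNA signal was 15911 to 25697 on egg arrays and 1283 to 7338 on later arrays (exact permutation p = 0.0238, adjusted p = 0.0655). The log2 ratio of 3′ to 5′ control signal (5.996 to 6.46 against 5.93 to 8.62) and the median signal of an array (36.5 to 50.9 against 47.3 to 218) overlapped between the groups. So did the hybridization spike signal (3813 to 5636 against 5569 to 151663). The exact permutation p was 0.167 for the 3′ to 5′ ratio (adjusted p = 0.23). It was 0.0476 for each of the other 2 (adjusted p = 0.0873). The part of these differences in the results below was not tested beyond the fits with the spike ratio that are given with them. Because that ratio does not overlap between egg and later arrays, those fits can hardly separate it from stage. Standard errors grew in them, for CPK4 from 0.318 to 1.09 and for RAB16C from 0.768 to 2.75. Summed markers of photosynthetic tissue (9 genes, 14475 to 22761 against 4378 to 20730), anther and pollen (8 genes, 5955 to 6618 against 5457 to 10693), endosperm (10 genes, 11072 to 19475 against 11480 to 43204) and ovule wall and nucellus (7 genes, 34462 to 54580 against 24787 to 42759) overlapped between egg and later arrays. For anther and pollen only the zygote arrays (5457 to 8209) overlapped the egg arrays. The fertilized egg arrays (8767 to 10693) all lay above them. No gene of the egg apparatus or sperm cell marker lists could be matched to a probe set by symbol, so the labelled cell type was not checked against its own markers. The zygote arrays were the least alike, with mean correlations to their own stage of 0.757, 0.688 and 0.778, against 0.936 to 0.956 for egg arrays.

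With every array at equal weight, 23 probe sets were lower in the later stages and 2 were higher at an adjusted p under 0.05 (limma, Benjamini-Hochberg over all probe sets tested). These are 0.0804% and 0.00699% of the probe sets tested, 0.0874% in both directions. Signals changed by 3.41-fold to 22.9-fold on the log2(signal + 15) scale, and in all 25 the 3 egg arrays lay outside the range of the 6 later arrays. Over all probe sets tested, every egg array lay above the later arrays in 3.71% and below them in 4.52%. Before adjustment, 3570 probe sets had p under 0.05, of which 1895 were higher and 1675 lower in the later stages. Of the 25, 12 pair with exactly 1 gene and represent 11 genes, and the plot of called genes by array shows each of their signals. The call rests on all 3 egg arrays: without any one of them 1 probe set was called, and none of the 11 genes kept its call.

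**Figure D1:**
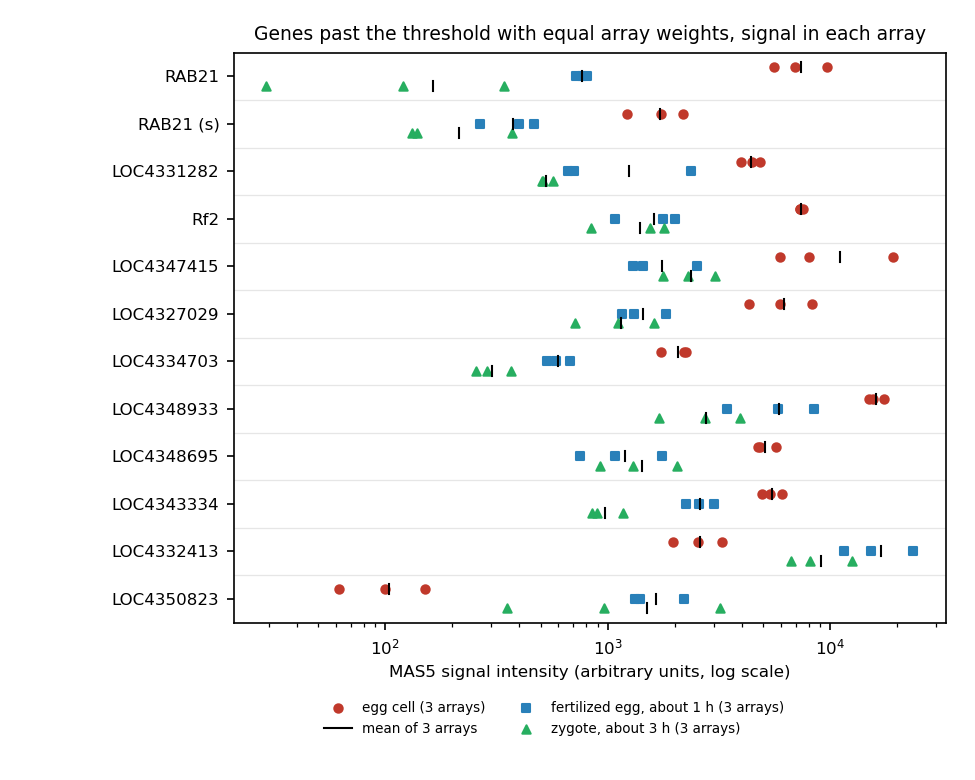
MAS5 signal (log axis) of the 12 called probe sets with a gene, in each of the 9 arrays, coloured by stage, with black bars at the mean of 3 arrays. In the first 10 rows every egg array lies above every later array; in LOC4332413 and LOC4350823 every egg array lies below. RAB21 (s) is the second RAB21 probe set.

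RAB21, a dehydrin of the RAB16 group, had the largest difference among the 11 called genes. Its signal was 9693, 6948 and 5619 in the egg cells, 720.1, 807 and 768 in the fertilized egg cells and 120.3, 29.2 and 343 in the zygotes. Egg arrays were all high, fertilized egg arrays were intermediate and zygote arrays were low, with no overlap between any of the stages. The later stages were lower by 22.9-fold (log2 change -4.51 ± 0.52 SE, adjusted p = 0.0115). A second RAB21 probe set, which carries the suffix that marks shared sequence, read 2182, 1744 and 1221 in egg cells and 131 to 465 later (log2 change -2.58 ± 0.41, adjusted p = 0.0492). Over 21 alternative settings the first probe set kept its sign in all and its call in 13, with log2 changes of -4.88 to -3.78 and adjusted p of 3.81e-05 to 0.387.

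None of the other dehydrins and ABA-response genes passed the test at equal weights. RAB16B, the neighbour of RAB21 in gene order on chromosome 11 with 0 genes between them, read 2193, 628 and 494 in egg cells, 421, 472 and 284 in fertilized egg cells and 49.4, 16.1 and 83.6 in zygotes. Its egg arrays all lay above the later ones, but the change of -2.56 ± 0.56 had an adjusted p of 0.169. RAB16C and RAB16D lie on the same chromosome, with 3 and 4 genes between them and RAB21. RAB16C read 612, 236 and 127 in egg cells and 39.9 to 762 later, and RAB16D 286, 432 and 364 and 124 to 637, and both pairs of ranges overlapped. Osr40c1, an ABA-responsive gene, had the opposite direction, with 22590, 28965 and 22806 in egg cells against 31186 to 105824 later (log2 change 1.16 ± 0.32, adjusted p = 0.222). The bright Dhn1 read 13776 to 18878 in egg cells and 7707 to 27255 later (log2 change -0.25 ± 0.32, adjusted p = 0.754). LEA19, EM and rab25 changed by -0.61 ± 0.60, -0.48 ± 0.54 and 0.35 ± 0.72, and their egg and later arrays overlapped. Of the 9 genes of the list, 1 was called lower and 0 higher, and with array weights 2 were lower (RAB21 and RAB16B, adjusted p = 0.0163) and 1 higher (Osr40c1, adjusted p = 0.00733). The median change was -0.56 against -0.03 over all genes. It was -0.17 with array weights, -0.16 with the spike ratio and -0.092 without zygote replicates 1 and 2. Over all genes the median in these fits was 0.013, -0.22 and 0.015.

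Rf2, which in rice restores fertility in a cytoplasmic male-sterile line and encodes a mitochondrial protein, was the second named gene higher in egg cells. Its signal was 7325, 7288 and 7575 in egg cells, 2013, 1074 and 1778 in fertilized egg cells and 839, 1798 and 1556 in zygotes. The egg arrays were close together and every later array was low, with no order between the later stages. The change was -2.35 ± 0.30 (adjusted p = 0.0142), or 5.08-fold. With the spike ratio as a covariate it was -0.35 with an adjusted p of 0.896, in a fit that can hardly separate that ratio from stage.

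The other 7 called genes that were lower later carry only a locus identifier, with no function in the annotation used. LOC4331282 read 4474, 3969 and 4822 in egg cells and 509 to 2368 later, where fertilized egg replicate 1 stood above the other later arrays (log2 change -2.55 ± 0.38, adjusted p = 0.0285). LOC4334703 read 2258, 1738 and 2214 in egg cells, 679, 534 and 584 in fertilized egg cells and 286, 256 and 367 in zygotes, a stepwise order with no overlap (log2 change -2.24 ± 0.30, adjusted p = 0.0148). A second probe set of LOC4334703 changed by -0.04. LOC4348933 read 14958, 17446 and 15640 in egg cells and 1696 to 8477 later (log2 change -2.06 ± 0.32, adjusted p = 0.0411). LOC4327029, LOC4347415 and LOC4348695 had log2 changes of -2.26 ± 0.32, -2.29 ± 0.37 and -2.03 ± 0.33. Second probe sets of LOC4327029 and LOC4348695 changed by -1.86 and -0.12, with adjusted p of 0.132 and 0.873. LOC4347415 varied most within egg cells, from 5942 to 19062. LOC4343334, outside the naming rule and named after its values were seen, changed by -1.77 ± 0.24 (adjusted p = 0.0153). The remaining 13 called probe sets pair with no single gene, 10 are of the predicted-gene set and 8 carry a shared-sequence suffix. The largest falls among them had log2 changes of -3.98 ± 0.59 and -3.88 ± 0.48.

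Among the called probe sets, 2 were higher after pollination, each from a gene known only by its locus identifier. LOC4332413 read 1969, 3278 and 2548 in egg cells, 11583, 15306 and 23662 in fertilized egg cells and 6643, 8096 and 12481 in zygotes. Every later array was above every egg array, and the change was 2.22 ± 0.30 (adjusted p = 0.0148), or 4.65-fold. LOC4350823 rose from 62.1, 151 and 99.8 to 1393, 1332 and 2204 in fertilized egg cells and 353, 3188 and 963 in zygotes, a log2 change of 3.52 ± 0.57 (adjusted p = 0.0492). Over 21 alternative settings both kept their sign in all, and the call held in 14 for LOC4332413 and in 7 for LOC4350823. Among others, LOC4350823 lost its call at offsets of 50 and 1, at the 75th percentile filter and after quantile normalization. The next gene in order on chromosome 11, LOC4350822, read 47.2, 71.3 and 150.4 in egg cells and 264 to 1911 later. Its change of 3.11 ± 0.66 had an adjusted p of 0.16.

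**Figure D2:**
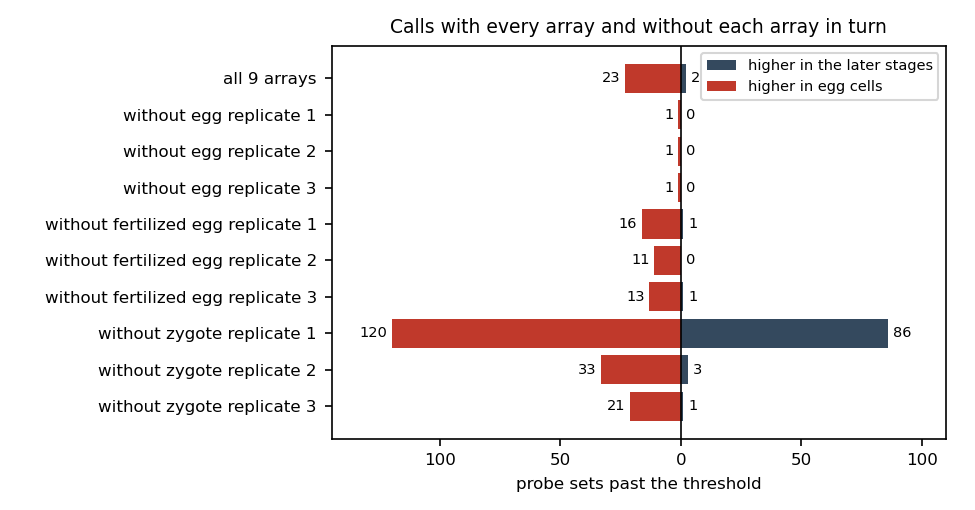
Number of probe sets past the threshold with all 9 arrays and without each array in turn, with those higher in egg cells to the left and those higher later to the right. Leaving out an egg array left 1 call, and leaving out zygote replicate 1 gave 206.

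The number of calls depended strongly on how the arrays were weighted. Without zygote replicate 1, 120 probe sets were lower and 86 higher later, and all 25 of the calls above were among them. With weights estimated for each array from the data, 1329 probe sets were lower (4.65%) and 1247 higher (4.36%), 9.01% in both directions, and these held all 25. The weights were 0.946 to 3.49 on egg arrays, 0.501 to 2.26 on fertilized egg arrays and 0.181 to 1.03 on zygote arrays. With the spike ratio as a covariate 1 probe set was called and none of the 25, and when the spike signals were averaged geometrically, a choice made after that result was seen, 888 were called, 10 of the 25 among them. With no trend of the variance 0 were called, with 3338 at an unadjusted p under 0.05. The calls at equal weights are the main result and those with array weights are given below as such.

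The later stages were also compared with each other. Between zygotes and fertilized egg cells 0 of the 28597 probe sets passed in limma, with 3018 (10.6%) at an unadjusted p under 0.05. Of the 25 called probe sets, 0 differed between the later stages after adjustment and 13 did before it. Among the 23 that were lower later, 13 had a lower mean in zygotes than in fertilized egg cells. Each later stage was compared with the same 3 egg arrays, so its separate values share a control. On the log2 scale and relative to egg cells, RAB21 was at -3.22 in fertilized egg cells and at -5.81 in zygotes. Rf2 was at -2.23 and -2.46, and LOC4332413 was at 2.66 and 1.78.

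With array weights, 76 of the 2124 kept genes with an informative name were called lower later with no overlap, and 68 were called higher. A gene was counted if any of its probe sets qualified. Counted as probe sets, 672 of all 28597 tested were called lower and 628 higher with no overlap, so the 2 pairs of counts are in unlike units. The 15 with the largest falls include LIR1, a light-regulated gene, which read 269, 509 and 329.6 in egg cells and 15.6 to 91.6 later (weighted log2 change -2.45 ± 0.43, adjusted p = 0.00611; equal weights -2.69 ± 0.59, adjusted p = 0.175). SGS3, a partner of RNA-dependent RNA polymerase in small RNA production, read 2021, 1641 and 1355 in egg cells and 30.1 to 488 later (weighted change -2.35 ± 0.35, adjusted p = 0.00318; equal weights adjusted p = 0.175). A second SGS3 probe set changed by 0.11, in the other direction. The phosphatase OsPP2C10 read 329 to 510.4 in egg cells and 11.7 to 214 later (weighted change -2.17 ± 0.40, adjusted p = 0.00831; equal weights adjusted p = 0.282). The phytochrome gene PHY18 read 1408 to 1563 in egg cells and 21.7 to 1313 later, a range set by zygote replicate 1 at the top and zygote replicate 2 at the bottom. NOL, a chlorophyll b reductase, read 941 to 1227 and 144 to 496, and the aquaporin OsTIP4;1 read 1583 to 3261 and 26.3 to 937, with another probe set at 0.93 in the other direction. EX2, SAT1, SMAX1L, OsC3H14, IAA24 and atpB completed the named falls. Second probe sets of atpB, SAT1 and PHY18 changed by -0.06, -0.44 and -0.93 at equal weights. The largest falls of genes with only a locus identifier were LOC4335696 (weighted change -3.84 ± 0.48), LOC4342148 (-2.98 ± 0.41) and LOC4352905 (-2.74 ± 0.42), and other probe sets of LOC4335696 and LOC4342148 changed by -0.97 and -0.26 at equal weights. The other probe sets of LOC4352905 changed by 0.47, -1.26 and -2.17.

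**Figure D3:**
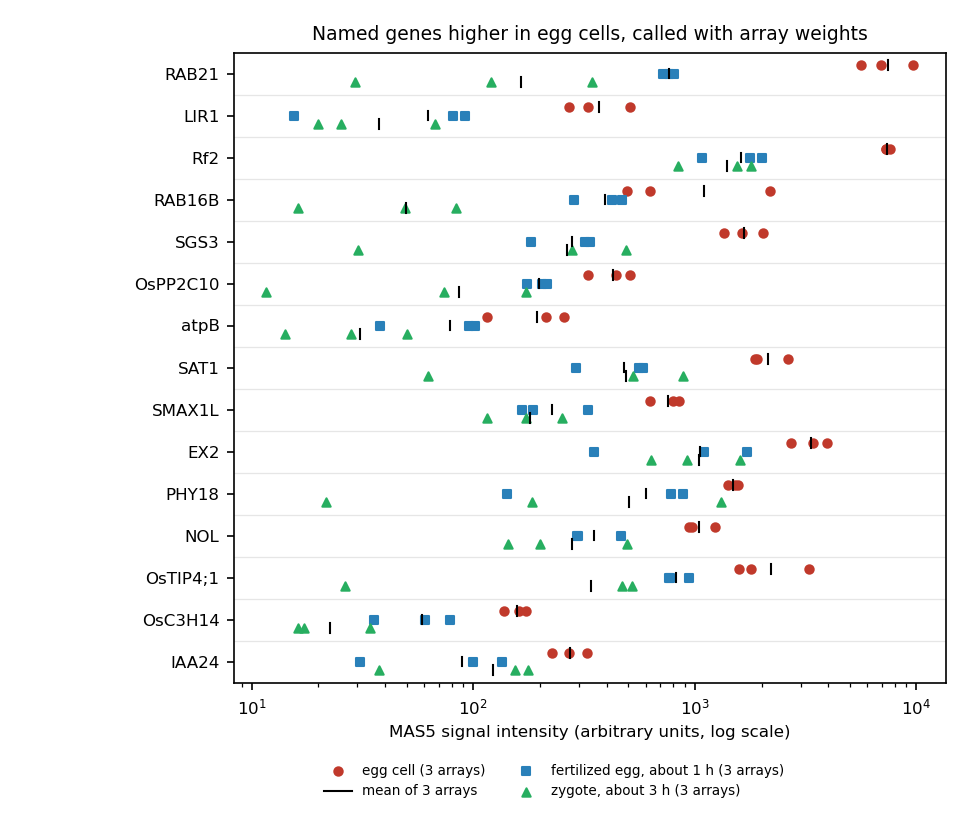
Signal (log axis) in each of the 9 arrays of the informative-named genes with the largest falls in the fit with array weights, by stage, with means of 3 arrays as black bars. Each gene has its 3 egg arrays above its 6 later arrays.

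With array weights, CH16, OsMAS and CPS2 had the largest rises among genes with an informative name whose egg and later arrays did not overlap. The chitinase chia4a and PBZ1 had larger weighted changes, but their egg and later arrays overlapped. CH16, a chitinase, read 26.4, 165 and 169 in egg cells, 1145, 573 and 2100 in fertilized egg cells and 348, 2659 and 849 in zygotes (weighted log2 change 3.03 ± 0.57, adjusted p = 0.00836; equal weights 3.22 ± 0.68, adjusted p = 0.157). Its neighbour CH6, with 0 genes between them on chromosome 6, read 4.07 to 60.4 and 69.6 to 523 and was not called in either fit. CPS2, a diterpene cyclase of phytoalexin synthesis, read 28.6, 53.4 and 14.8 in egg cells and 72.1 to 760.0 later (weighted change 2.92 ± 0.45, adjusted p = 0.00355; equal weights adjusted p = 0.192). OsMAS, which makes momilactone A, read 1.79, 6.60 and 3.29 in egg cells, near the bottom of the scale, and 38.2 to 278 later (weighted change 2.95 ± 0.48, adjusted p = 0.00465; equal weights adjusted p = 0.196). The calmodulin-like CML27 read 33.6 to 44.0 and 100.1 to 646, with a weighted change of 1.97 ± 0.37, and a second probe set changed by 0.33 at equal weights. HSP81-3, an HSP90 chaperone, read 30276 to 41100 and 46148 to 167383, and other probe sets of it changed by 0.53, -0.43 and -1.56. The translation initiation factor GOS2 read 26788 to 38403 and 39910 to 133436, and its other probe sets changed by -0.24 and -0.98. The alpha-tubulin TID1 was higher on each of 3 probe sets, by 1.21 ± 0.21 at most. ABCG36, a transporter, GST-II, a glutathione transferase, IAA19, SAP9, CPK4, OsPP2C15 and OsPP2C73 were also higher. The OsPP2C73 probe set called here read 24.6 to 65.1 in egg cells. The brightest probe set of that gene read 4469 to 6187 there and changed by 0.12, and others changed by 1.38 and -0.068. A second SAP9 probe set changed by 0.14. Of genes with only a locus identifier, LOC4327172 had the largest weighted change, 4.14 ± 0.47, with 198, 87.7 and 105 in egg cells and 257 to 17108 later, and at equal weights its adjusted p was 0.0563. LOC4339529, LOC4350823, LOC4329545, LOC4350822 and LOC4326475 followed at 3.79 ± 0.54, 3.46 ± 0.34, 2.92 ± 0.49, 2.77 ± 0.50 and 2.72 ± 0.46. In egg cells LOC4339529, LOC4329545 and LOC4326475 read 4.98 to 6.65, 5.37 to 6.63 and 2.72 to 4.14, near the bottom of the scale and below the offset of 15. Zygote replicate 1 was also below it for LOC4339529 (14.5) and LOC4329545 (12.3).

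**Figure D4:**
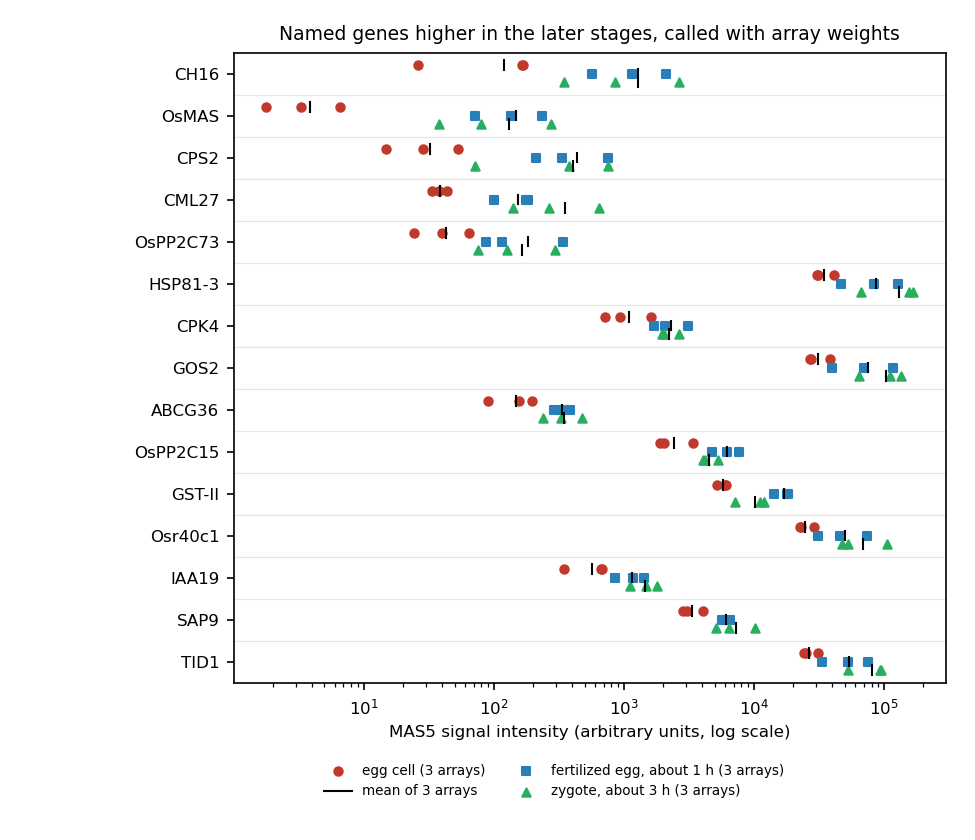
Signal (log axis) in each of the 9 arrays of the informative-named genes with the largest rises in the fit with array weights, by stage, with means of 3 arrays as black bars. Each gene has its 3 egg arrays below its 6 later arrays.

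Gene lists were read against all genes, of which 4.33% had every egg array above the later arrays and 4.23% every egg array below. Over these 15342 genes at 1 probe set each, 0.0521% were called lower later and 0.013% higher at equal weights (0.0652% together), and 4.91% and 4.71% with array weights (9.62% together). Their median log2 change was -0.03 at equal weights and -0.22 with the spike ratio as a covariate. It was -0.11 after quantile normalization. Of 26 cytosolic ribosomal protein genes, which build the translating ribosome, 12 (46.2%) had every egg array below and 0 above. Their median log2 change was 0.57 against -0.03 over all genes, with 24 of 26 above 0, and 0 called at equal weights and 10 called higher with array weights. After quantile normalization 4 of the 26 did not overlap, against 3.53% of all genes, and the median was 0.20. RPL7A-2 read 6763, 6173 and 4827 in egg cells and 11051 to 16566 later (log2 change 1.20 ± 0.22, adjusted p = 0.104). RPS27AB read 16199, 18789 and 14200 and 22053 to 56289 (adjusted p = 0.202). Of 10 translation factors, 4 had every egg array below and 0 above, and the median change was 0.16, or 0.01 after quantile normalization. TCTP, a translationally controlled protein, read 30713 to 36797 and 38250 to 121577 and EF-1-alpha, which delivers aminoacyl-tRNA, 22571 to 28367 and 31012 to 77700. For TCTP and RPS27AA quantile normalization turned the change to -0.015 and -0.002, and the 18S signal above went the other way.

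**Figure D5:**
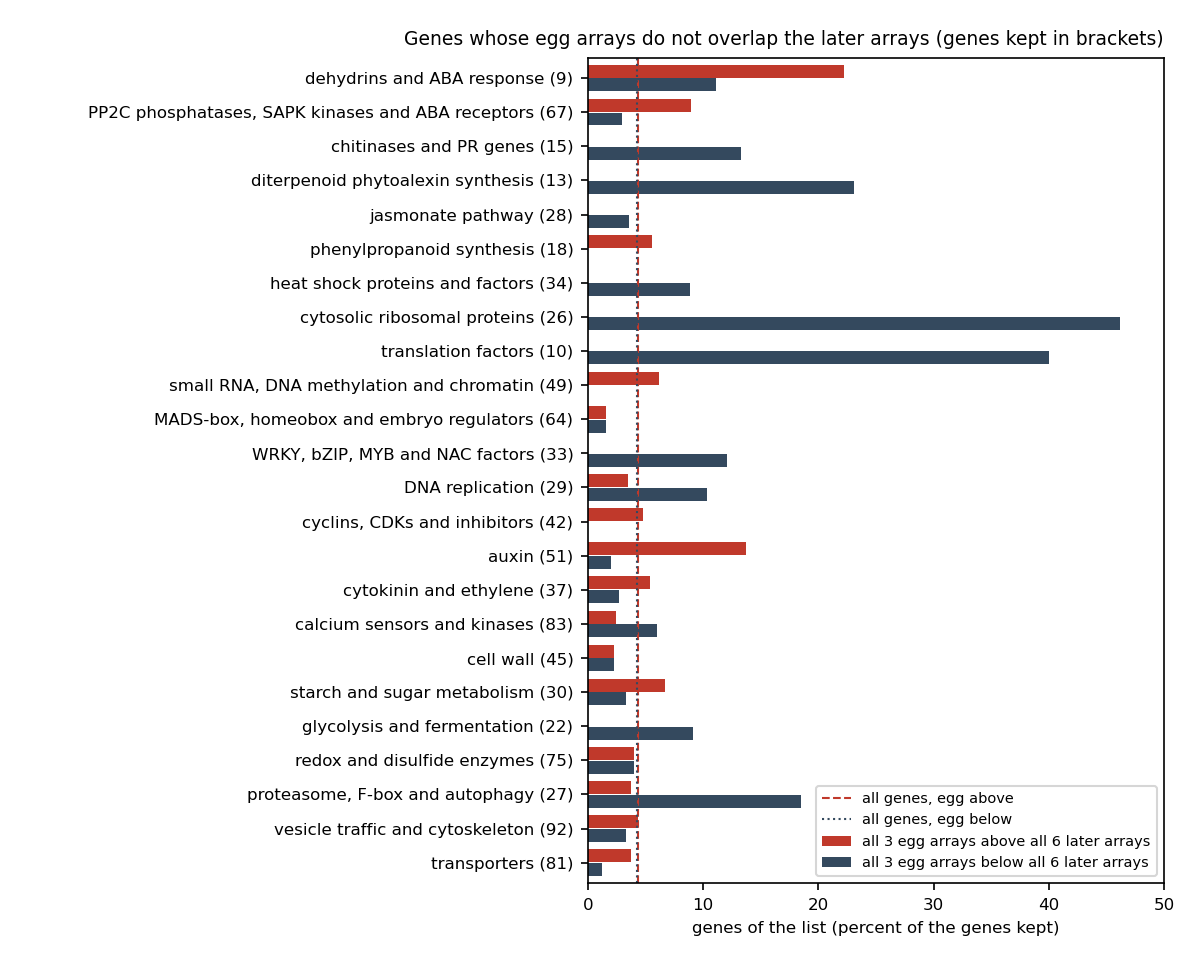
Share of the kept genes of each list (genes kept in brackets) whose 3 egg arrays all lie above, or all lie below, the 6 later arrays. Dashed and dotted lines mark the shares over all genes, 4.33% and 4.23%, and ribosomal proteins reach 46.2% below.

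Diterpenoid phytoalexin genes (13 of 20 kept, the others too dim) had a median change of 1.40, 3 with every egg array below and 0 called at equal weights. The filter took the mean over all arrays, with a cutoff near a signal of 49.7. OsMAS and CPS2, which are among those 3, averaged 3.90 and 32.3 in egg cells and passed only through the later arrays. The count and the median therefore partly reflect the filter. Of the 13, 10 changed by more than 0 and 3 by less. With array weights 4 were called higher and 2 lower. The 2 brightest, KS1A and CYP701A19, were lower later, by -1.04 ± 0.48 and -1.45 ± 0.42 at equal weights (adjusted p = 0.4 and 0.243). The list median turned to -1.25 when only probe sets above the 75th percentile were kept. That filter leaves the brightest members, and the value lies midway between those of KS1A and CYP701A19. It is therefore not a separate result for the 13 genes. Of 15 chitinase and PR genes 2 had every egg array below, 5 were called higher with array weights, and the median was 0.48, or 0.014 after quantile normalization, 0.029 without zygote replicate 2 and -0.53 with the spike ratio as a covariate. CH6, 1 of the 2 with every egg array below, averaged 41.1 in egg cells and also passed the filter only through the later arrays. PBZ1, a pathogenesis-related gene, read 338, 135 and 165 in egg cells and 311 to 13138 later, where zygote replicate 1 overlapped the egg cells. Of 28 jasmonate genes kept, 1 (3.57%) had every egg array below, near the 4.23% over all genes. With array weights 9 were called higher and 1 lower. The list median was 0.59, or -0.44 with the spike ratio, against -0.22 over all genes in that fit. JAZ1, a repressor of jasmonate responses, read 17209, 20578 and 16799 in egg cells and 24414 to 48789 later (log2 change 0.94 ± 0.26, adjusted p = 0.229). Of 34 heat shock genes 3 had every egg array below, all of the HSP81 family, with a median of 0.32, or 0.18 after quantile normalization. HSP81-2 read 31737 to 32526 and 35119 to 84581, and quantile normalization turned its change to -0.27.

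Of 51 auxin genes, 7 (13.7%) were above and 1 below, with 0 called at equal weights and 5 lower with array weights. The median change was -0.15, or -0.36 after quantile normalization, -0.37 without zygote replicate 3 and -0.82 with the spike ratio. IAA1, a repressor of auxin responses, read 1272, 5160 and 1958 in egg cells and 288 to 1080 later (log2 change -1.84 ± 0.50, adjusted p = 0.221), and ILL5 read 1917 to 2786 and 483 to 1652. Of 67 genes for PP2C phosphatases, SAPK kinases and ABA receptors, 6 (8.96%) were above and 2 below, and the median of -0.14 became 0.03 with array weights. Of 49 small RNA, methylation and chromatin genes 3 (6.12%) were above, near the 4.33% over all genes, among them the argonaute AGO1, which read 1991, 1226 and 2015 in egg cells and 284 to 1136 later (log2 change -1.36 ± 0.44, adjusted p = 0.272), and SET1, a Polycomb methyltransferase, at 2828 to 3396 and 1194 to 2185. Of 42 cell cycle genes 2 (4.76%) were above, again near that share: CYCL1-1, a cyclin, at 4440, 4200 and 3791 and 880.5 to 2651 (log2 change -1.15 ± 0.28, adjusted p = 0.202), and CDC2-1, a cyclin-dependent kinase, at 4565 to 5257 and 1824 to 3884.

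In DNA replication, 3 of 29 genes (10.3%) had every egg array below and 1 (3.45%) above. The median was 0.34, or 0.17 with array weights, 0.16 without zygote replicate 2 and 0.75 with the spike ratio. PCNA, the sliding clamp of DNA polymerase, read 4931, 3774 and 5039 in egg cells and 5538 to 8330 later, and the helicase subunit MCM3 read 3044, 2191 and 3664 and 3836 to 5976. OsRPA70a, a subunit of the single-strand binding complex, went the other way, 2504, 1962 and 2502 against 1107 to 1732. None of these passed at equal weights. With array weights 0 genes of the list were called higher and 1 lower, OsRPA70a (adjusted p = 0.0228). Of 27 proteasome, F-box and autophagy genes 5 (18.5%) were below and 1 above. PAD1, a proteasome subunit, read 2814, 2593 and 2300 in egg cells and 3800 to 6420 later, and APG8B, an autophagy protein, 9898, 6957 and 9099 and 2735 to 6871. The list median of 0.17 became -0.20 with the spike ratio, where the median over all genes was -0.22. Of 33 WRKY, bZIP, MYB and NAC genes 4 (12.1%) were below and 0 above, with a median of 0.25, or 0.40 with array weights, 0.10 after quantile normalization and -0.78 with the spike ratio. Among 75 redox genes 3 (4%) were above and 3 (4%) below, near the 4.33% and 4.23% over all genes. PDIL2-3, a protein disulfide isomerase, read 4383, 3336 and 3183 in egg cells and 652 to 3082 later (log2 change -1.34 ± 0.28, adjusted p = 0.16), while PDIL5-1 read 2416, 2814 and 2098 and 3249 to 7026. Of the 4 organelle-encoded and restorer genes Rf2 was the called one. Calcium sensor, phenylpropanoid, cell wall, starch, glycolysis, cytokinin, homeobox, vesicle and transporter lists had between 0 and 9.09% of genes in either class, and no gene of theirs passed at equal weights.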

How the data were processed

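RNA from 9 samples of about 100 cells was measured on 1-colour rice arrays. The deposited intensity values were MAS5 signals, per the submitters' processing notes, and the 2% trimmed mean was 500.1 on every array. No version of the MAS5 software was stated. From these values log2(signal + 15) was computed, control and reporter probe sets were dropped and probe sets whose mean over all arrays reached the 50th percentile were kept. Stage means were fitted in limma 3.58.1 (R 4.3.3) with trend, the contrast was the mean of the 2 later stages minus egg cells, and p-values were adjusted by Benjamini-Hochberg. The number of arrays limits the precision. Permutation tests used scipy 1.17.1. The scripts were tested on simulated data. Probe sets were named from the platform annotation (22436 of 22531 listed probe sets have exactly 1 gene, 95 have several), and gene order and updated identifiers came from RefSeq assembly ASM3414082v1, in which all 17905 genes were found. No coordinates or sequences were used.

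Named genes are those past the threshold, with no overlap between egg and later arrays and exactly 1 gene: the 15 largest changes each way with an informative symbol and the 6 largest with a locus identifier, the same with array weights, and per list the 3 largest each way without overlap and the 2 brightest. Gene lists use 1 probe set per gene, the brightest. The members and lists were chosen with earlier results of these data known. The averaging of the spike, 18S and 3′ to 5′ control probe sets was changed after first values were seen. The plan had named the spike ratio without an averaging rule, so the arithmetic ratio computed first is kept as the planned covariate, and the geometric one is an added alternative. Replicate numbers did not pair the samples: same-numbered arrays of different stages had deviations correlated from -0.224 to 0.138. Alternatives were array weights, quantile normalization, offsets of 50 and 1, no filter or a 75th percentile filter, no trend, 2 group means, the spike ratio, a replicate block, each array left out and other probe sets of a gene.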

Additional observations from a re-analysis of the deposited data

Results flagged for a closer look

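In 16 of 162 named probe sets, 1 of the 6 later arrays stood apart from the other 5 by more than Dixon's critical value. Chance alone gives this in about 1 in 20 groups. Low signals in zygote replicate 2 were OsTIP4;1 (26.3), RDR2 (412.9), ORR1 (336.1), SSII-1 (55.3) and EL2 (11785), and high signals there were CYP76M6 (574.8) and ZHD2 (695). Zygote replicate 1 was low for LOC4329545 (12.3), chia4a (33.9) and EXPB9 (838.5). Zygote replicate 3 was high for SAP9 (10241) and EXPB4 (51294). Fertilized egg replicate 3 was low for OsPP2C32 (885) and IAA17 (3578) and high for PBF1 (12255). Fertilized egg replicate 1 was high for LOC4331282 (2368), the only one of these that was called at equal weights.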

How the results depend on the processing

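The count of 25 probe sets at equal weights became 2576 with array weights, 11 after quantile normalization, 0 without a variance trend (3338 at an unadjusted p under 0.05) and 4 with 2 group means. With the spike ratio as a covariate it was 1, and with geometric averaging of the spikes 888. The second averaging was chosen after the first count was seen, and the ratio itself does not overlap between egg and later arrays, so neither count is preferred. Leaving out 1 array gave 1 to 206: 1 without any egg array, 11 and 14 without fertilized egg replicates 2 and 3, and 206 without zygote replicate 1. Without zygote replicates 1 and 2 together it was 244. Offsets of 50 and 1, the filters and the block kept it between 18 and 27. The causes were not tested. Between zygotes and fertilized egg cells the count of 0 became 208 with the geometric spike ratio and 5 without zygote replicates 1 and 2 together, and leaving out 1 array gave 0 to 6, with 6 without zygote replicate 1 and 3 without zygote replicate 3. Replicate numbers did not pair the samples, and the replicate block gave 20 calls for the later stages against egg cells and 0 between the later stages. All 25 called probe sets kept their sign under every alternative they were tested in. Quantile normalization moved the median change of all genes from -0.03 to -0.11, and the spike ratio (arithmetic) as a covariate moved it to -0.22. Sign turns in the fits with the spike ratio carry large standard errors, such as 1.09 for CPK4 and 2.75 for RAB16C with the arithmetic ratio. With the spike ratio (arithmetic) as a covariate, signs turned for CPK4 (-0.16), RAB16D (0.080), EM (0.28), RAB16C (0.25), rab25 (-0.20), OsbZIP41 (-0.026), CYCL1-1 (0.28), LOG (-0.053), SPS2 (-0.42), GAPC3 (-1.21), ARP9 (0.14), SCAMP1 (0.23), jasmonate pathway (-0.44), WRKY, bZIP, MYB and NAC factors (-0.78), proteasome, F-box and autophagy (-0.20). With the geometric ratio, they turned for EM (0.59), RAB16C (0.051), SPS2 (-0.093), GAPC3 (-0.32), proteasome, F-box and autophagy (-0.10). Under quantile normalization they turned for HSP81-2 (-0.27), RPS27AA (-0.002), TCTP (-0.015). Another probe set of the same gene had the opposite sign for SGS3 (0.11), OsTIP4;1 (0.93), LOC4352905 (0.47), OsPP2C73 (-0.068), HSP81-3 (-0.43), HSP81-3 (-1.56), GOS2 (-0.24), GOS2 (-0.98), Dhn1 (0.52), HSP81-1 (-0.35), EF-1-alpha (-0.20), CBL9 (0.30), AldC-1 (-0.018), AldC-1 (-0.12), GAPC3 (-1.15), ARP9 (0.11). The rest that turned were Dhn1 with array weights (0.14), Dhn1 without zygote replicates 1 and 2 together (0.11), LEA19 without zygote replicates 1 and 2 together (0.12), RAB16C without egg replicate 1 (0.020), diterpenoid phytoalexin synthesis at a filter at the 75th percentile (-1.25). The last value covers only the brightest members of that list. Leaving out each array, RAB16C ranged from -1.09 to 0.020.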
